A study of Mus musculus with 384 samples.

Results

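The Eph receptors are receptor tyrosine kinases, and the ephrins are the ligands that they meet on the surface of neighbouring cells. The 10 genes described here were taken by name from the deposited matrices of 32813 genes: the EphA receptors Epha3, Epha4, Epha5 and Epha7, the EphB receptors Ephb1 and Ephb2, the ephrin-A genes Efna3 and Efna5, and the ephrin-B genes Efnb1 and Efnb2. The other 12 genes of the mouse family are given more briefly. Ephrin-As are held in the membrane by a lipid anchor and mostly bind EphA receptors, whereas ephrin-Bs span the membrane and mostly bind EphB receptors, with EphA4 able to bind both kinds. Binding signals into the cell that carries the receptor (forward) and also into the cell that carries the ephrin (reverse), often causing contact-dependent repulsion or adhesion. In the visual system the family is best known for graded expression across the retina, which guides the axons of ganglion cells to their place in the brain.

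The cells came from 4 retinas of 2 mice at postnatal day 17, named 1la, 1Ra, 2la and 2Ra, where the digit is the mouse and the rest of the name is not explained in the labels. All mice carried Cre recombinase at the Kcng4 locus (Kcng4tm1.1(cre)Jrs) together with Thy1-stop-YFP Line#1, a reporter that Cre switches on, so that cells with present or past Cre activity were yellow fluorescent, and there was no treatment. Single fluorescent cells were sorted into 96 wells per retina and read by Smart-seq2, which copies whole transcripts into cDNA. Of 384 wells, 383 had values, and 321 cells had at least 3000 genes at an expected count of 1 or more (70, 80, 88 and 83 cells in 1la, 1Ra, 2la and 2Ra).

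Cells were grouped by which single one of 3 genes reached 20 TPM (transcript abundance corrected for gene length and scaled to a fixed total per cell). The Vsx1-only group, named for a homeobox factor of cone bipolar cells, held 60 cells (16, 18, 14 and 12 in 1la, 1Ra, 2la and 2Ra). The Ddit4l-only group, named for a negative regulator of mTOR signalling, held 59 cells (10, 19, 20 and 10). The Sox6-only group, named for an SRY-box transcription factor, held 151 cells (33, 30, 46 and 42). A further 18 cells had 2 or 3 of the marker genes and 33 had none. The lowest cell inside the threshold and the highest one below it had 31.01 and 15.8 TPM for Vsx1, 28.96 and 16.9 TPM for Ddit4l, and 20.8 and 18.7 TPM for Sox6.

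The kept cells had 203657 to 1945582 expected counts each, with a median of 1065569. Median totals per retina ran from 759554 (1Ra) to 1258579 (1la), and the mitochondrial share of the counts was lower in the la retinas (median 2.1% in both) than in the Ra retinas (4.3% and 4.9%). Bipolar cell genes were the leading retinal markers: 10 of 12 were found in most Vsx1-only cells, 9 in most Ddit4l-only cells and 11 in most Sox6-only cells, including the ON bipolar receptor Grm6. None of 6 amacrine markers was found in most cells of any group, and of 7 ganglion cell markers only Thy1 was, in the Sox6-only group. The cone gene Pde6h and the horizontal cell gene Calb1 were each found in most cells of all 3 groups, as was the Müller glia gene Slc1a3, while Glul, another gene of Müller glia, was found in most Vsx1-only and most Sox6-only cells. No astrocyte, microglia or endothelial marker was found in most cells of a group. Of 8 rod genes, 5 were found in most Vsx1-only cells, 3 in most Ddit4l-only cells and 5 in most Sox6-only cells, and the rod genes summed to at least 1000 TPM in 25 Vsx1-only, 13 Ddit4l-only and 58 Sox6-only cells.

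Transcripts of the 6 listed receptors were present in every grouped cell, and those of the 4 listed ephrins in a minority. Each of the 270 grouped cells had at least 1 of the 6 receptors at 1 TPM or more, with a median of 2.5 receptors per Vsx1-only cell and 3 per Ddit4l-only and per Sox6-only cell. At least 1 of the 4 ephrins was found in 14 of 60 Vsx1-only cells (23.3%), 8 of 59 Ddit4l-only cells (13.6%) and 33 of 151 Sox6-only cells (21.9%). For all 8 ephrins of the family it was 22 (36.7%), 17 (28.8%) and 42 cells (27.8%) in the same order. Summed mean levels of the 6 receptors ran from 94.6 to 125.7 TPM over the 4 Vsx1-only retinas, from 563 to 1263 TPM over the Ddit4l-only retinas and from 575 to 742 TPM over the Sox6-only retinas. Summed levels of the 4 ephrins ran from 0.435 to 37.6 TPM, from 0.398 to 24.7 TPM and from 9.39 to 20.8 TPM in the same order of groups.

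**Figure D1:**
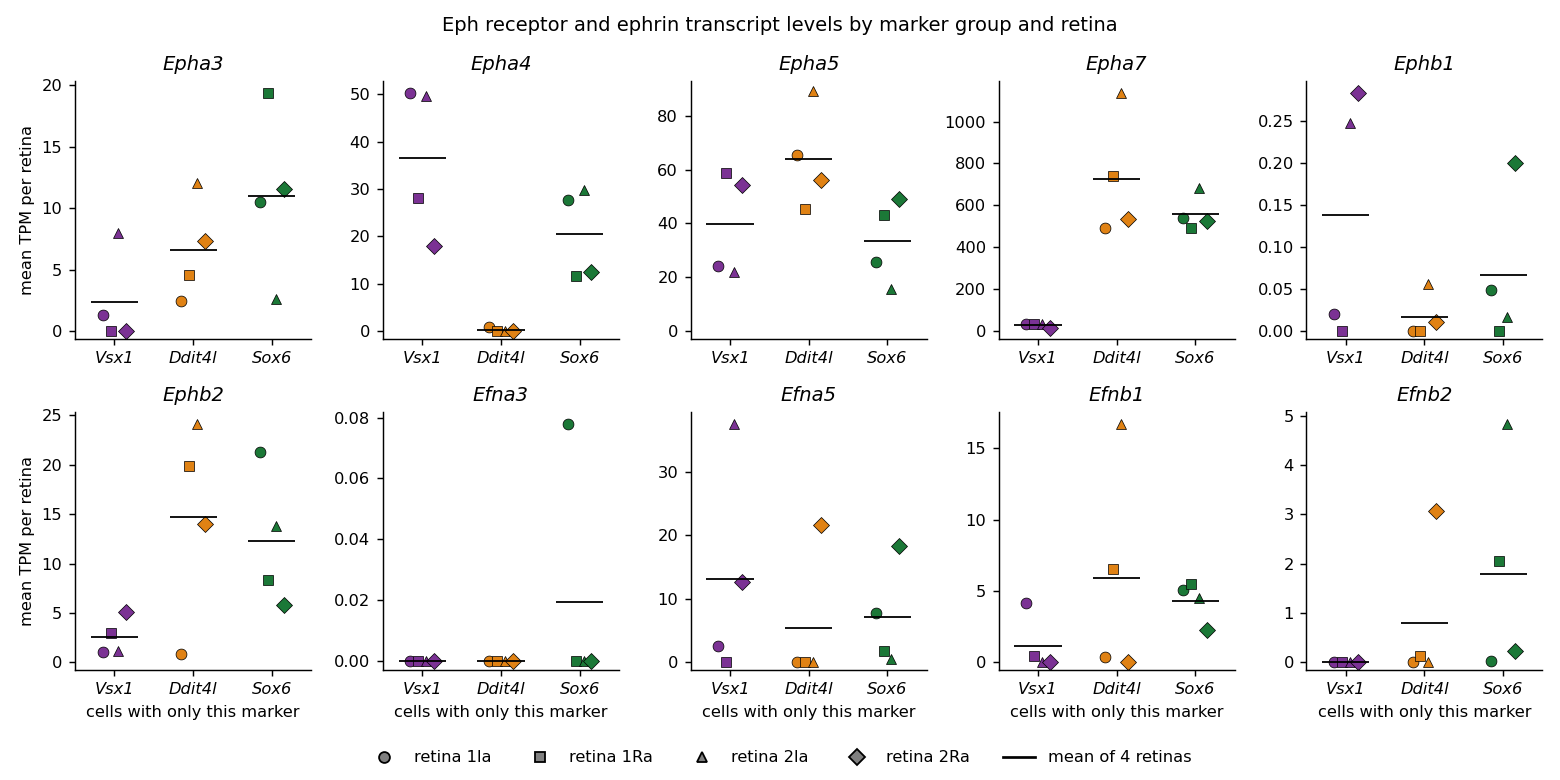
Mean TPM per retina (vertical axis, linear, 1 scale per gene) of the 10 genes in Vsx1-only, Ddit4l-only and Sox6-only cells; each symbol is 1 of the 4 retinas and the line is their mean. Epha7 lies at 16.9 to 36.01 TPM in the Vsx1-only retinas, against 494 to 1137 TPM in the Ddit4l-only and 492 to 681 TPM in the Sox6-only retinas, and Epha4 stays under 1 TPM in the Ddit4l-only retinas.

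The order of the genes by level differed between the groups. In Vsx1-only cells Epha5 (39.8 ± 19.5 TPM, SD over 4 retinas), Epha4 (36.5 ± 16.1 TPM) and Epha7 (30.3 ± 9.07 TPM) led and did not differ beyond their spread. In Ddit4l-only cells Epha7 led by far (727 ± 294 TPM), ahead of Epha5 (64.02 ± 18.7 TPM) and Ephb2 (14.7 ± 10.2 TPM), while Epha4 averaged 0.245 ± 0.359 TPM. In Sox6-only cells Epha7 led as well (560.4 ± 82.7 TPM), followed by Epha5 (33.4 ± 15.5 TPM), Epha4 (20.5 ± 9.69 TPM), Ephb2 (12.3 ± 6.87 TPM) and Epha3 (11.01 ± 6.87 TPM), whose neighbours in this order overlapped in spread. By mean TPM, Epha7 ranked 4570th of the 32813 genes in Vsx1-only cells, 98th in Ddit4l-only cells and 134th in Sox6-only cells.

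Epha7 and Epha4, the members called by edgeR, lie on different chromosomes, and their promoters are shown because the calls among the 10 genes rest on them. In the mouse assembly GRCm38.p6 of RefSeq, Epha7 spans chr4:28813066-28967503 and Epha4 spans chr1:77367182-77515107. The windows below run from 250 bases before to 50 bases after a transcription start, 5′ to 3′ on the strand of the gene, at chr4:28812881-28813180 (plus strand, the first of the starts listed for Epha7) and chr1:77515039-77515338 (minus strand), and capitals mark matches to 3 motifs.
Epha7: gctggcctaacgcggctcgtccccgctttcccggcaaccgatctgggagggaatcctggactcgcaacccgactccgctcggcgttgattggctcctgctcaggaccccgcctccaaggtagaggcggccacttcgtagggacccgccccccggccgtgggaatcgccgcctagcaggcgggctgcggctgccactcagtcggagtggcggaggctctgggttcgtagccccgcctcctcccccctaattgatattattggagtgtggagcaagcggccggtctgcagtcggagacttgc
Epha4: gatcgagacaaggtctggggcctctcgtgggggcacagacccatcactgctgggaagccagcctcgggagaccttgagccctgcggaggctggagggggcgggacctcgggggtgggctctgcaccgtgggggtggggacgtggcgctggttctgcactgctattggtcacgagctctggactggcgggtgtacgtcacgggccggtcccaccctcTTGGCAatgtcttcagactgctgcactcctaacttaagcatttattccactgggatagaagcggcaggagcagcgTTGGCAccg
The motifs, searched on both strands, were TAATCC (the core bound by OTX and CRX homeodomain factors), TAATTA (a paired-type homeodomain core) and TTGGCA (a nuclear factor I half-site), and none overlaps another. All 10 genes had a window. The Epha4 window held 2 copies of TTGGCA, at positions -34 and 42 from the start site, and the Epha7 window held no match. Of the other 8 genes, Ephb2 had 1 copy of TTGGCA and Epha5 had 1 of TAATTA. These letters were present in 7.06% (TAATCC), 5.29% (TAATTA) and 14.1% (TTGGCA) of all 32851 promoter windows, so a match is a description of the window and not a binding site. Both windows were rich in G and C (67% for Epha7 and 64% for Epha4, against a median of 52.7% over all windows).

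Epha7, a receptor for ephrin-As that also exists in forms without the kinase domain, was the most abundant of the 10 genes in Ddit4l-only and Sox6-only cells and was far lower in Vsx1-only cells. Its mean level in Vsx1-only cells was 32.3, 35.9, 36.01 and 16.9 TPM in 1la, 1Ra, 2la and 2Ra. In Ddit4l-only cells it was 494, 741, 1137 and 536 TPM, and in Sox6-only cells 541, 492, 681 and 528 TPM. Every Vsx1-only retina lay below every retina of the other groups, and the Ddit4l-only and Sox6-only retinas overlapped. In counts summed per mouse and scaled to library size (CPM), Epha7 had 62.2 and 72.8 CPM in Vsx1-only cells of mouse 1 and mouse 2, 1353 and 1980 CPM in Ddit4l-only cells, and 1224 and 1415 CPM in Sox6-only cells.

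Epha7 was lower in Vsx1-only than in Sox6-only cells by -4.29 ± 0.26 on the log2 scale (SE, 2 mice a group, edgeR quasi-likelihood adjusted p = 0.0355), a 19.5-fold difference. It was the only one of the 8 testable genes called in that comparison, at an adjusted p under 0.05 and at least 2-fold, where 0.0781% of the 16643 genes tested were called (0.00601% higher and 0.0721% lower). Against Ddit4l-only cells the log2 difference was -4.63 ± 0.26 (edgeR adjusted p = 0.0129), a 24.7-fold difference. Between Ddit4l-only and Sox6-only cells it was 0.34 ± 0.22 (edgeR adjusted p = 0.762). With the mouse as a block, which the shared animals call for, the adjusted p was 0.0595 for Vsx1-only over Sox6-only and 0.0180 for Vsx1-only over Ddit4l-only. Without retina 1Ra the adjusted p was 0.159 and 0.106 for these comparisons at log2 differences of -4.47 and -4.61, and with the cells rich in rod transcripts left out it was 0.0844 for Vsx1-only over Sox6-only at -4.55.

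Within the Vsx1-only group Epha7 varied from cell to cell more than the retina means show. At least 1 TPM was found in 29 of 60 Vsx1-only cells (48.3%, exact 95% interval 35.2 to 61.6%), against 58 of 59 Ddit4l-only cells (98.3%, 90.9 to 99.96%) and 150 of 151 Sox6-only cells (99.3%, 96.4 to 99.98%). The share of Vsx1-only cells was lower in both retinas of mouse 1 (37.5% and 33.3% for la and Ra) than in those of mouse 2 (64.3% and 66.7%). The median cell had 0.945 TPM in the Vsx1-only group, 675 TPM in the Ddit4l-only group and 493 TPM in the Sox6-only group. At 20 TPM or more were 16 Vsx1-only cells, 58 Ddit4l-only cells and 148 Sox6-only cells, and the highest Vsx1-only cell had 274.9 TPM, below the lower quartile of the Sox6-only cells (289 TPM). Of the 9 Vsx1-only cells that had a trace of Sox6 or Ddit4l (1 TPM or more), 5 had Epha7 at 1 TPM, and of the 51 with neither, 24 did. Thinned to 200000 counts per cell, Epha7 had at least 1 count in 50% of Vsx1-only cells, against 81.7% before thinning. The 33 cells with no marker gene had mean Epha7 levels of 192 to 356 TPM per retina, with 21 cells at 1 TPM or more, and all 18 cells with 2 or 3 marker genes had it.

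**Figure D2:**
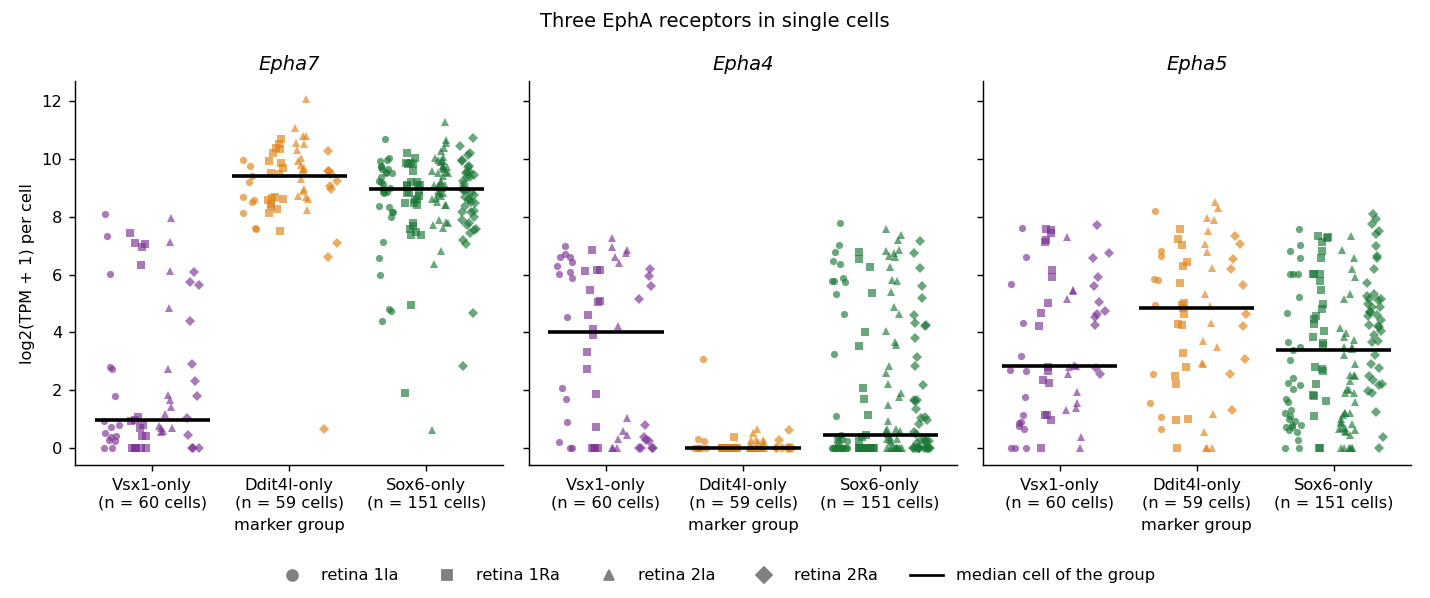
log2(TPM + 1) of Epha7, Epha4 and Epha5 in single cells (vertical axis), in Vsx1-only (60 cells), Ddit4l-only (59 cells) and Sox6-only (151 cells) groups; each symbol is a cell, its shape the retina, and the line the median cell. Epha7 is at 1 TPM or more in 58 of 59 Ddit4l-only cells, Epha4 in 1 of 59, and both vary widely within the Vsx1-only group.

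Epha4, a receptor for both ephrin classes, was present in Vsx1-only and Sox6-only cells and, at 1 TPM or more, nearly missing from Ddit4l-only cells. Its mean level was 50.3, 28.04, 49.6 and 18.03 TPM in Vsx1-only cells of 1la, 1Ra, 2la and 2Ra. In Ddit4l-only cells it was 0.781, 0.0158, 0.108 and 0.0760 TPM, and in Sox6-only cells 27.8, 11.7, 29.8 and 12.6 TPM. All Ddit4l-only retinas lay below all others, while the Vsx1-only and Sox6-only retinas overlapped. Summed counts were 143.7 and 137.4 CPM in Vsx1-only cells of the 2 mice, 1.30 and 0.417 CPM in Ddit4l-only cells, and 88.5 and 86.6 CPM in Sox6-only cells.

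Epha4 was higher in Vsx1-only than in Ddit4l-only cells by 7.37 ± 0.66 on the log2 scale (SE, 2 mice a group, edgeR quasi-likelihood adjusted p = 0.0405). It was 1 of 2 of the 10 genes called in that comparison, Epha7 being the other, where 0.3% of all genes tested were called (0.138% higher and 0.162% lower). The direction was the same in both mice and under every alternative run, but with the mouse as a block the adjusted p was 0.103. It was 0.0938, 0.188 and 0.124 without retina 1la, 1Ra and 2la, 0.0577 with marker genes at 50 TPM, and 0.0546 without the cells rich in rod transcripts.

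Between Ddit4l-only and Sox6-only cells the log2 difference of Epha4 was -6.69 ± 0.64, with an unadjusted p of 7.7e-05 and an edgeR adjusted p of 0.175 from 2 mice a group, so it was not called. In that comparison edgeR called 0 of 16643 genes (0%), although 1430 (8.59%) had an unadjusted p under 0.05 and DESeq2 called 858 of 23990 (3.58%). Epha4 was called with no filter on low counts (edgeR adjusted p = 0.0382), in retina sums blocked by retina (edgeR adjusted p = 0.00615, at -6.99) and by DESeq2 (adjusted p = 1.4e-26, at -6.63). The retina sums take both retinas of a mouse as separate replicates, although they share the animal. The difference between Vsx1-only and Sox6-only cells was 0.68 ± 0.49 (edgeR adjusted p = 0.816).

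Epha4 was found at 1 TPM or more in 37 of 60 Vsx1-only cells (61.7%, exact 95% interval 48.2 to 73.9%), 1 of 59 Ddit4l-only cells (1.7%, 0.043 to 9.09%) and 64 of 151 Sox6-only cells (42.4%, 34.4 to 50.7%). The 1 Ddit4l-only cell had 7.40 TPM, 67.1% of the summed level of its group. In cells that had it, the median was 64.1 TPM in the Vsx1-only group and 26.3 TPM in the Sox6-only group. Epha4 levels also went with the retina: in Vsx1-only and in Sox6-only cells, the la retina was above the Ra retina of the same mouse. On the log2(TPM + 1) scale the differences were 0.82 and 1.41 in Vsx1-only and 1.18 and 1.18 in Sox6-only cells of mouse 1 and mouse 2. The share of cells with Epha4 had the same order within each mouse: in Vsx1-only cells it was 75% in 1la and 72.2% in 1Ra, and 57.1% in 2la and 33.3% in 2Ra. In Sox6-only cells it was 39.4% in 1la and 30% in 1Ra, and 50% in 2la and 45.2% in 2Ra. The la retinas had more counts per cell and a lower mitochondrial share (above), and the part of these in the difference was not tested. Median sums of the Müller glia, bipolar and rod markers were also lowest in Ddit4l-only cells, and those of the cone, horizontal and amacrine markers were not. In the order Vsx1-only, Ddit4l-only and Sox6-only they were 142, 19.1 and 117 TPM (Müller glia), 8536, 5154 and 8783 TPM (bipolar), and 799, 290 and 643 TPM (rod). Within Vsx1-only cells the Müller glia median was highest in 1Ra (224.5 TPM) and lowest in 2la (114.7 TPM), where Epha4 averaged 28.04 and 49.6 TPM. The median cell of every group had 0 TPM of 5 of the 7 Müller glia markers (Rlbp1, Apoe, Aqp4, Sox9 and Vim). The part of these lists in the Epha4 difference was not tested.

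The receptors Epha7 and Epha4 met in different combinations in single cells. Of the 60 Vsx1-only cells, 16 had both at 1 TPM or more, 13 had Epha7 alone, 21 had Epha4 alone and 10 had neither. Of the 59 Ddit4l-only cells, 1 had both, 57 had Epha7 alone and 1 had neither. Of the 151 Sox6-only cells, 64 had both, 86 had Epha7 alone and 1 had neither. At this cut of 1 TPM, Epha4 without Epha7 was thus seen in the Vsx1-only group and in none of the Ddit4l-only or Sox6-only cells. In each of the latter groups only 1 cell was below the cut for Epha7, which left little room for it. Below the cut is not absence, since 81.7% of Vsx1-only cells had at least 1 count of Epha7. Within the Vsx1-only and Sox6-only groups the levels of the 2 genes were not visibly related across cells (Pearson r of log2 levels -0.01 over 60 and 0.08 over 151 cells, as a description). The r of -0.03 over 59 Ddit4l-only cells cannot show a relation either way, since Epha4 reached 1 TPM in 1 of them.

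**Figure D3:**
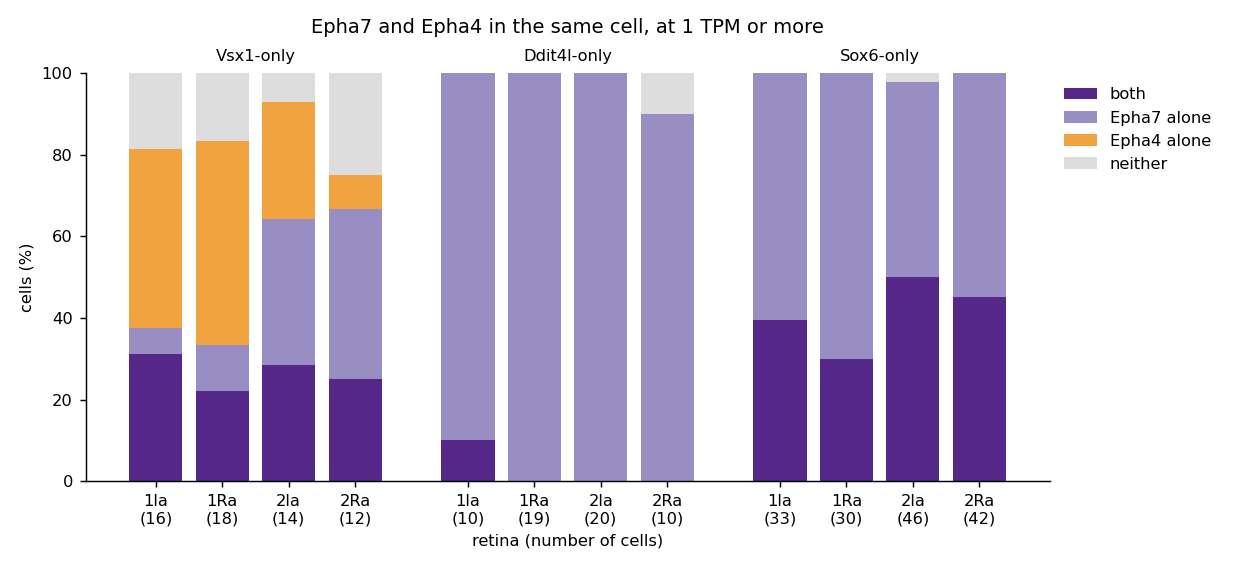
Share of cells (vertical axis, %) with both Epha7 and Epha4 at 1 TPM or more, with Epha7 alone, with Epha4 alone and with neither, in each retina of the Vsx1-only, Ddit4l-only and Sox6-only groups; numbers of cells are under the bars. Epha4 alone is seen in Vsx1-only cells, 21 of 60, and Epha7 alone makes up 57 of 59 Ddit4l-only cells.

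Epha5, an ephrin-A receptor known for its graded expression in the visual pathway (chr5:84054761-84417818), was the most evenly spread member, with no edgeR call in any comparison. Its mean level was 24.1, 58.8, 21.9 and 54.2 TPM in Vsx1-only cells of 1la, 1Ra, 2la and 2Ra. It was 65.6, 45.2, 89.2 and 56.01 TPM in Ddit4l-only cells, and 25.6, 43.3, 15.6 and 49.1 TPM in Sox6-only cells. The groups overlapped, and the share of cells at 1 TPM or more was 81.7% (exact 95% interval 69.6 to 90.5%) in the Vsx1-only, 88.1% (77.1 to 95.1%) in the Ddit4l-only and 80.1% (72.9 to 86.2%) in the Sox6-only group. In sums per mouse Epha5 had 105.8 and 98.7 CPM in Vsx1-only cells, 152.3 and 211.3 CPM in Ddit4l-only cells, and 82.2 and 87.02 CPM in Sox6-only cells. The log2 difference was 1.10 ± 0.26 for Ddit4l-only over Sox6-only cells (edgeR adjusted p = 0.319), -0.83 ± 0.25 for Vsx1-only over Ddit4l-only cells (edgeR adjusted p = 0.261) and 0.27 ± 0.25 for Vsx1-only over Sox6-only cells (edgeR adjusted p = 0.902). DESeq2 called the first of these (adjusted p = 0.00113, at 1.15).

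Epha5 differed between the retinas of a mouse, and the direction depended on the group. In Vsx1-only cells the la retina lay below the Ra retina by -1.25 and -1.27 on the log2(TPM + 1) scale in mouse 1 and mouse 2, and in Sox6-only cells by -0.74 and -1.59. In Ddit4l-only cells the la retina lay above the Ra retina, by 0.53 and 0.66. The share of cells with Epha5 was 69.7%, 93.3%, 65.2% and 95.2% in 1la, 1Ra, 2la and 2Ra of the Sox6-only group, and 56.3%, 88.9%, 85.7% and 100% in the Vsx1-only group. No test of these differences was made, with 1 set of wells per retina.

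Epha3, another ephrin-A receptor (chr16:63543532-63864175), was carried by a minority of cells in each group. It was at 1 TPM or more in 3 of 60 Vsx1-only cells (5%), 10 of 59 Ddit4l-only cells (16.9%) and 29 of 151 Sox6-only cells (19.2%), and in those cells the median was 21.1, 19.4 and 38.3 TPM in the same order. Its mean level was 1.35, 0, 7.97 and 0.0142 TPM in Vsx1-only cells of 1la, 1Ra, 2la and 2Ra, 2.46, 4.58, 12.04 and 7.37 TPM in Ddit4l-only cells, and 10.5, 19.4, 2.58 and 11.6 TPM in Sox6-only cells. The groups overlapped, and a single cell held 81.1% of the Vsx1-only sum. The log2 differences were -2.36 ± 1.41 for Vsx1-only over Sox6-only, -0.51 ± 1.35 for Ddit4l-only over Sox6-only and -1.86 ± 1.39 for Vsx1-only over Ddit4l-only cells, none of them called (edgeR adjusted p = 0.753, 0.985 and 0.631).

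Ephb2, a receptor for ephrin-Bs (chr4:136647536-136836326), was present at a trace in over 50% of the cells of every group and abundant in few. It was at 1 TPM or more in 58.3% of Vsx1-only, 55.9% of Ddit4l-only and 66.9% of Sox6-only cells, with a median of 1.21, 1.10 and 1.60 TPM over all cells of these groups. At 20 TPM or more were 2 Vsx1-only, 5 Ddit4l-only and 14 Sox6-only cells, and the highest cells had 25.8, 258 and 406 TPM. Its mean level was 1.03, 2.96, 1.12 and 5.10 TPM in Vsx1-only cells of 1la, 1Ra, 2la and 2Ra, 0.811, 19.9, 24.2 and 14.03 TPM in Ddit4l-only cells, and 21.3, 8.28, 13.8 and 5.85 TPM in Sox6-only cells. Vsx1-only retinas all lay below the Sox6-only retinas, while the Ddit4l-only retinas spanned both.

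The log2 difference of Ephb2 was -1.97 ± 0.50 for Vsx1-only over Sox6-only cells (edgeR adjusted p = 0.316), -1.51 ± 0.49 for Vsx1-only over Ddit4l-only cells (edgeR adjusted p = 0.284) and -0.46 ± 0.48 for Ddit4l-only over Sox6-only cells (edgeR adjusted p = 0.904). DESeq2 called the first (adjusted p = 0.000102, at -1.93) and the second (adjusted p = 0.00329, at -1.51). Ephb1, the second EphB receptor of the list (chr9:101922128-102354693), had retina means of at most 0.283 TPM in Vsx1-only, 0.0565 TPM in Ddit4l-only and 0.200 TPM in Sox6-only cells. It was at 1 TPM or more in 2 of 60, 0 of 59 and 2 of 151 cells, and its counts were too low to be tested.

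**Figure D4:**
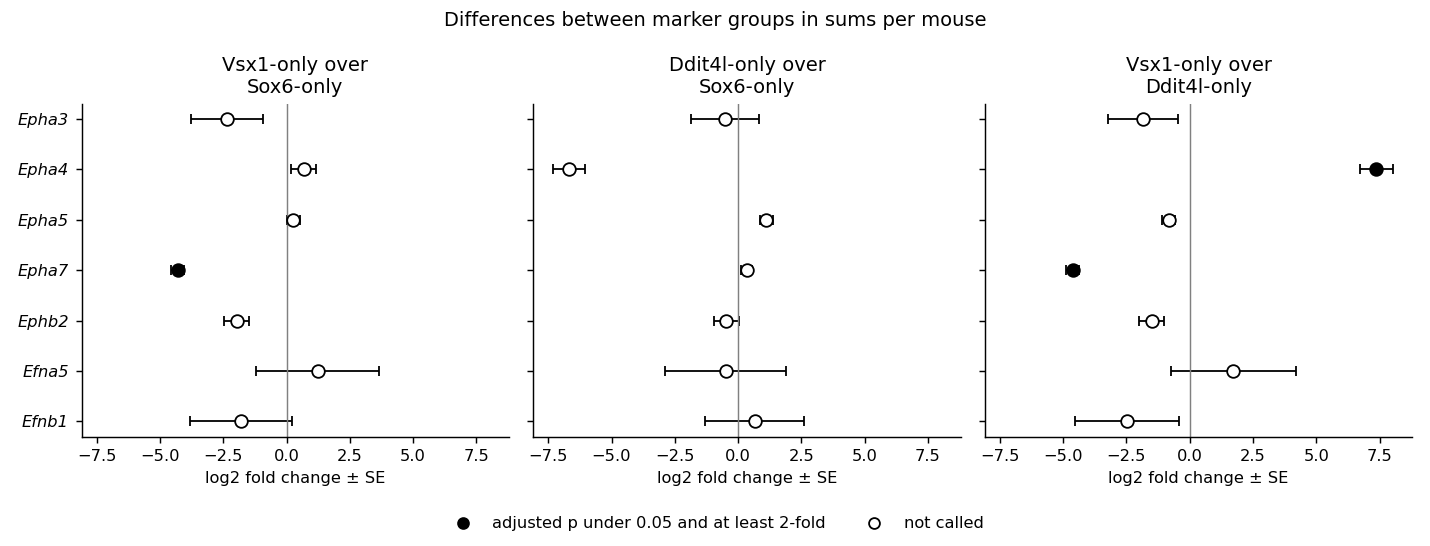
log2 fold changes with their SE (horizontal axis) in counts summed per mouse, for the 7 tested genes that had counts in every group, in Vsx1-only over Sox6-only, Ddit4l-only over Sox6-only and Vsx1-only over Ddit4l-only cells; filled points are called by edgeR. Epha7 is called lower in Vsx1-only cells in both comparisons and Epha4 higher in Vsx1-only than in Ddit4l-only cells, and the wide bars of Efna5 and Efnb1 cross 0 or come near it.

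The ephrin-A gene Efna5 (chr17:62602957-62881317), a ligand of the EphA receptors, was the ligand found in the largest share of Vsx1-only cells among the 4. It was at 1 TPM or more in 12 of 60 Vsx1-only cells (20%, exact 95% interval 10.8 to 32.3%), 2 of 59 Ddit4l-only cells (3.4%, 0.413 to 11.7%) and 14 of 151 Sox6-only cells (9.3%, 5.16 to 15.1%). Its mean level was 2.53, 0, 37.6 and 12.6 TPM in Vsx1-only cells of 1la, 1Ra, 2la and 2Ra, 0, 0, 0.0310 and 21.6 TPM in Ddit4l-only cells, and 7.73, 1.82, 0.520 and 18.3 TPM in Sox6-only cells. Retina 2Ra was the highest in the Ddit4l-only and Sox6-only groups, and 2la in the Vsx1-only group. Of the 12 Vsx1-only cells with Efna5, 8 also had its receptor gene Epha7, as did 1 of the 2 Ddit4l-only and 13 of the 14 Sox6-only cells. Among all cells of these groups Epha7 was found in 48.3%, 98.3% and 99.3%. No comparison was called (log2 differences 1.23 ± 2.42 for Vsx1-only over Sox6-only, -0.49 ± 2.40 for Ddit4l-only over Sox6-only and 1.72 ± 2.46 for Vsx1-only over Ddit4l-only, edgeR adjusted p = 0.993, 0.996 and 0.843), and the direction was not stable. With the mouse as a block, the difference between Vsx1-only and Sox6-only cells was -1.65 ± 2.47 (edgeR adjusted p = 0.958).

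Efna3, the other ephrin-A gene of the list (chr3:89313899-89322939), was at 0 in all Vsx1-only and Ddit4l-only cells, which at a limit of 3 cells allows a share with detected transcripts of up to 5% of Vsx1-only and 5.08% of Ddit4l-only cells (exact 95% upper bounds 5.96% and 6.06%). It was at 1 TPM or more in 1 of 151 Sox6-only cells, at 2.57 TPM, and was not tested. The ephrin-Bs, ligands that signal back through their own cytoplasmic tails, were likewise rare. Efnb1 (chrX:99136061-99149022) was at 1 TPM or more in 2 Vsx1-only, 4 Ddit4l-only and 12 Sox6-only cells. Its mean level was 4.13, 0.435, 0 and 0 TPM in Vsx1-only cells of 1la, 1Ra, 2la and 2Ra, 0.398, 6.53, 16.7 and 0 TPM in Ddit4l-only cells, and 5.05, 5.51, 4.49 and 2.27 TPM in Sox6-only cells. These ranges overlapped, and no difference of Efnb1 was called (log2 differences -1.81 ± 2.01, 0.66 ± 1.95 and -2.46 ± 2.05 for Vsx1-only over Sox6-only, Ddit4l-only over Sox6-only and Vsx1-only over Ddit4l-only, edgeR adjusted p = 0.938, 0.986 and 0.676).

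Efnb2 (chr8:8617235-8661242), the second ephrin-B gene, was at 0 in all 60 Vsx1-only cells, which by the same limit allows a share with detected transcripts of up to 5% (exact 95% upper bound 5.96%). It was at 1 TPM or more in 3 of 59 Ddit4l-only cells and 9 of 151 Sox6-only cells, with retina means of 0, 0.131, 0.0155 and 3.08 TPM in Ddit4l-only and of 0.0285, 2.06, 4.84 and 0.223 TPM in Sox6-only cells of 1la, 1Ra, 2la and 2Ra. A floor of 3 counts over the Vsx1-only sums was 110-fold below the CPM of Sox6-only cells and 42.8-fold below that of Ddit4l-only cells. That floor counts reads, which came from few cells. By cells, the shares at 1 TPM or more were 5.96% in the Sox6-only and 5.08% in the Ddit4l-only group. The upper bound of the Vsx1-only share is not below them, so no least fold difference follows. Neither difference from Vsx1-only cells was called (edgeR adjusted p = 0.376 and 0.269), a single cell held 37.1% of the Sox6-only and 83.6% of the Ddit4l-only sum, and DESeq2 called both (adjusted p = 0.00212 and 0.00795). Between Ddit4l-only and Sox6-only cells the log2 difference was -1.34 ± 1.68 (edgeR adjusted p = 0.936).

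Counted together, 8 of the 10 genes had enough counts for the test. In Vsx1-only over Sox6-only cells 1 was called lower and none higher, with a median log2 difference of -1.89 against -0.02 over all genes tested, and in Vsx1-only over Ddit4l-only cells 1 was called higher and 1 lower, with a median of -1.68 against 0 over all genes. In Ddit4l-only over Sox6-only cells none was called, with a median of -0.48 against -0.04. Called or not, 5 of the 8 were lower and 3 higher in the first comparison, 6 lower and 2 higher in the second, and 5 lower and 3 higher in the third. Some of these differences had a wide SE, such as Efnb1 in the first (-1.81 ± 2.01), and the medians were not tested. Placing Efnb2 at its floor of 3 counts in Vsx1-only cells left these medians as they are. Listed for Vsx1-only over Sox6-only, Ddit4l-only over Sox6-only and Vsx1-only over Ddit4l-only cells, DESeq2 called 3, 2 and 4 of the 10 genes (4.01%, 3.58% and 7.37% of all genes), and retina sums blocked by retina gave 1, 1 and 2 (0.793%, 0.531% and 2.28%). The mouse block gave 0, 0 and 1 (0%, 0% and 0.024%), and an unadjusted edgeR p under 0.05 was reached by 3, 2 and 5 (8.68%, 8.59% and 13.5%). The DESeq2 shares are over 23990 genes with any count, where a gene without an adjusted p counts as not called. Those of the retina sums are over 14505 genes and the others over 16643, so the shares are not on the same footing. Retina means did not overlap for 3 of the 8 in Vsx1-only and Sox6-only cells (Epha7, Ephb2 and Efnb2, where 7.29% of all genes tested did not overlap), for 1 in Ddit4l-only and Sox6-only cells (Epha4, background 6.65%) and for 2 in Vsx1-only and Ddit4l-only cells (Epha4 and Epha7, background 7.45%). For Efnb2 the gap was 0 TPM against 0.0285 TPM in Sox6-only cells of 1la, where 0% of cells reached 1 TPM. For Ephb2 it was 5.10 TPM (Vsx1-only, 2Ra) against 5.85 TPM (Sox6-only, 2Ra). The comparisons share groups of cells and are not independent.

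**Figure D5:**
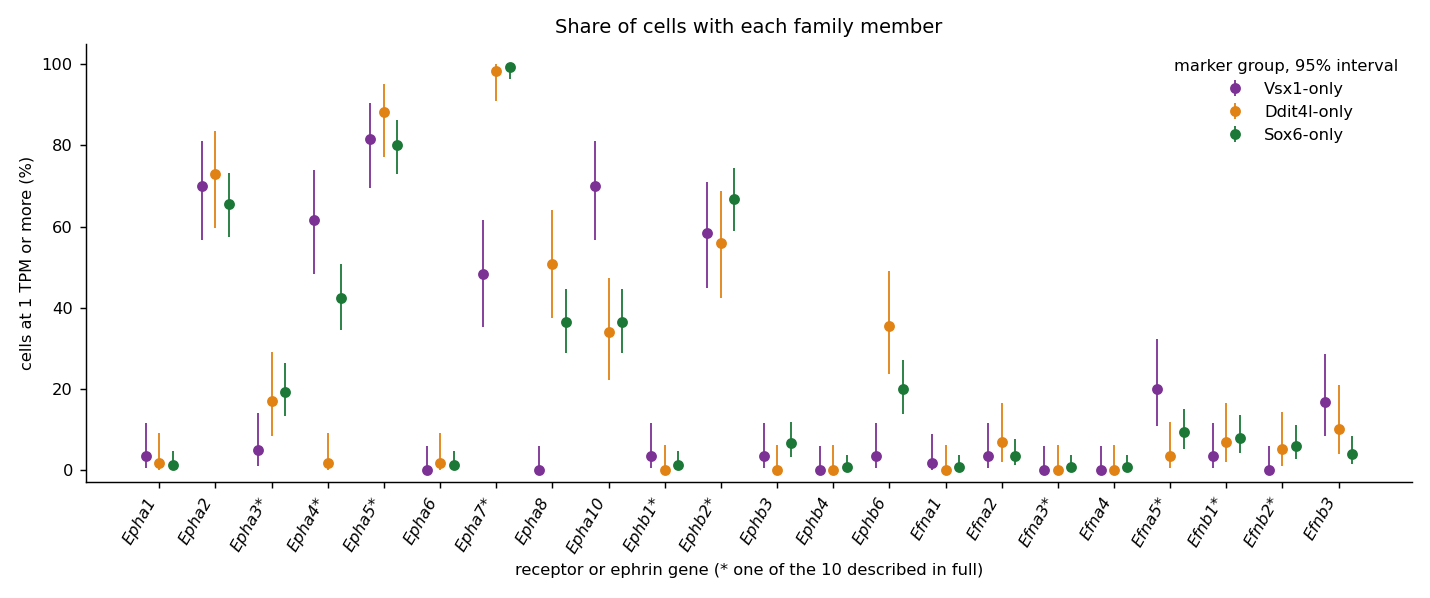
Share of cells at 1 TPM or more (vertical axis, %) with exact 95% intervals for all 22 genes of the family, in Vsx1-only, Ddit4l-only and Sox6-only cells; asterisks mark the 10 genes described in full. Epha7 stands at 48.3%, 98.3% and 99.3% and Epha4 at 61.7%, 1.7% and 42.4% in these groups, and all 8 ephrin genes stay at 20% or less.

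Of the other 12 family genes, 4 reached a mean of 5 TPM in a group, all of them receptors. Epha8 followed Epha7 in direction, with 0 to 0.0475 TPM in Vsx1-only retinas, against 5.55 to 27.7 TPM in Ddit4l-only and 6.41 to 16.7 TPM in Sox6-only retinas. It was called lower in Vsx1-only than in Sox6-only cells (log2 difference -8.46 ± 0.67, edgeR adjusted p = 0.0444, 0.135 with the mouse as a block) and than in Ddit4l-only cells (-9.19 ± 0.69, edgeR adjusted p = 0.0298, 0.0853 with the block). Epha10, a receptor without kinase activity, ran from 15.9 to 52.1 TPM in Vsx1-only, 5.43 to 20.5 TPM in Ddit4l-only and 8.41 to 18.3 TPM in Sox6-only retinas and was not called. Ephb6, also without kinase activity, ran from 0 to 1.46 TPM in Vsx1-only, 1.00 to 45.05 TPM in Ddit4l-only and 8.05 to 31.1 TPM in Sox6-only retinas (not called, edgeR adjusted p = 0.123 for Vsx1-only over Ddit4l-only and 0.259 for Vsx1-only over Sox6-only). Epha2 stayed at 2.68 to 6.91 TPM in all 12 combinations of group and retina. Of the 12 genes 9 could be tested, and edgeR called Epha8 alone. DESeq2 called Epha8, Ephb6 and Efnb3 in Vsx1-only over Sox6-only cells (adjusted p = 1.3e-28, 5.9e-05 and 0.00282), Ephb3 in Ddit4l-only over Sox6-only cells (adjusted p = 0.0360), and Epha8 and Ephb6 in Vsx1-only over Ddit4l-only cells (adjusted p = 1.8e-34 and 3.8e-07).

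Of 39 genes for proteins that act with Eph receptors or ephrins, 37 could be tested. In Vsx1-only over Ddit4l-only cells 1 was called higher and 1 lower, against 0.138% and 0.162% of all genes tested, and in the other comparisons edgeR called none. Listed for Vsx1-only over Sox6-only, Ddit4l-only over Sox6-only and Vsx1-only over Ddit4l-only cells, 4, 3 and 6 of the 37 had an unadjusted edgeR p under 0.05 (8.68%, 8.59% and 13.5% of all genes tested). In that order DESeq2 called 3, 4 and 5 (4.01%, 3.58% and 7.37% of 23990 genes with any count). Chn2, a Rac-inactivating protein of the chimaerin kind that acts in forward signalling, averaged 3.26 ± 1.58 TPM in Vsx1-only, 45.1 ± 8.49 TPM in Ddit4l-only and 34.9 ± 7.12 TPM in Sox6-only cells (SD over 4 retinas). It was lower in Vsx1-only than in Ddit4l-only cells by -4.15 ± 0.42 (edgeR adjusted p = 0.0436, 0.119 with the mouse as a block). Rgs3, a regulator of G-protein signalling that binds the tail of ephrin-Bs, averaged 252.5 ± 49.8 TPM in Vsx1-only, 5.40 ± 5.18 TPM in Ddit4l-only and 13.01 ± 7.73 TPM in Sox6-only cells. It was higher in Vsx1-only than in Ddit4l-only cells by 5.69 ± 0.45 (edgeR adjusted p = 0.0323, 0.0963 with the block). The median log2 difference over the 37 was 0.29 in Vsx1-only over Sox6-only, -0.03 in Ddit4l-only over Sox6-only and 0.25 in Vsx1-only over Ddit4l-only cells, against -0.02, -0.04 and 0 over all genes tested.

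Among 8264 genes with at least 20 CPM in a group, those whose pattern over the 12 sums per retina and group was most like that of a member were ranked by Pearson r of log2(CPM + 1), as a description, since the 3 groups of a retina share its wells. Nearest to Epha7 were Slc40a1 (0.99), an iron exporter, Chn2 (0.98) and Cdh11 (0.97), a cadherin. Nearest to Epha4 were Fn1 (0.98), fibronectin, Il1rapl2 (0.98) and Adcy2 (0.96), an adenylyl cyclase. The likeness was weaker for Epha5 (Rpl35 0.90, Ndufa11 0.87 and Hmgb1 0.85), Epha3 (Mgll 0.91, Ireb2 0.90 and Fcho1 0.89), Ephb2 (Mamdc2 0.95, Tpst2 0.93 and Keap1 0.91) and Efna5 (Chrnb3 0.93, Rab30 0.89 and Pls3 0.85).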

How the data were processed

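Single cells were sorted and read by Smart-seq2, per the labels. TopHat2 2.0.10, RSEM 1.2.28 and the build mm10 are named per the submitters' processing notes, and the gene annotation is not given in the sources used here. The authors deposited a matrix of expected counts from RSEM, without normalisation, and one of TPM, scaled by the authors to transcript length and to a fixed total per cell. RSEM shares reads between similar genes, so near-identical family members could exchange counts. Values covered 383 of 384 cells, the last one (1la) being not analysed here. All columns had a sample.

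The 10 genes, the gene lists and the cell rule were chosen with earlier results of these data known. Cells with 2 or 3 marker genes were kept out of the groups and no doublet caller was run. The highest correlation between a pair of cells was 0.746, and no well was taken for a repeat of another.

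Expected counts were rounded and summed per mouse and marker group into 6 sums. They were scaled by TMM, filtered with filterByExpr and tested with edgeR 4.0.16 (quasi-likelihood, limma 3.58.1, R 4.3.3), leaving out the marker genes Vsx1, Ddit4l and Sox6. Genes were called at a Benjamini-Hochberg adjusted p under 0.05 over all genes tested and at least 2-fold. SE is the log2 difference over the root of F. The mouse is the replicate (n = 2), and cells and the retinas of a mouse are not. Fits on retina sums take both retinas of a mouse as separate replicates, so their adjusted p can be too low. Groups of a mouse share the animal, although the deviations of the mice from the group means correlated weakly between groups across genes (r = 0.03, 0.03 and 0.07), so the values with the mouse as a block are given beside the results whose call they change. Shares have exact Clopper-Pearson 95% intervals, and these and the limit of 3 counts cover counting error only. Totals of 203657 to 1945582 counts per cell set the precision. Each retina filled its own wells, so retina and wells cannot be told apart, and a difference between mice rests on 2 sets of wells per mouse.

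Named were all 10 members, the other family genes with a group mean of 5 TPM or more, called partner genes, and the 3 genes most like each member whose highest group mean was 10 TPM or more. Promoters and positions are from RefSeq (GRCm38.p6). The scripts were tested on simulated data. Alternatives were DESeq2 1.42.0, RLE scaling, no low-count filter, the mouse block, sums per retina, other marker thresholds and cell filters, limma on log2(TPM + 1) or log2(TPM + 0.1), thinning to 200000 counts, and leaving out each retina in turn. Leaving out each mouse in turn, without a test, was added after seeing the data.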

Additional observations from a re-analysis of the deposited data

Results flagged for a closer look

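In 6 of 27 sets of 4 retinas, 1 retina stood apart from the other 3 by Dixon's criterion, which chance meets in about 1 of 20 sets of normally spread values. These were Epha3 in Vsx1-only cells, at 7.97 TPM in 2la, Efnb1 in Vsx1-only cells, at 4.13 TPM in 1la, Epha4 in Ddit4l-only cells, at 0.781 TPM in 1la, Efna5 in Ddit4l-only cells, at 21.6 TPM in 2Ra, Efnb2 in Ddit4l-only cells, at 3.08 TPM in 2Ra, and Efna3 in Sox6-only cells, at 0.0779 TPM in 1la. In each of them a single cell held most of the group's sum, 67.1% or more. Such a cell sets its retina apart by itself, so the rate for normally spread values does not apply to these sets.

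The direction of Efna5 between Vsx1-only and Sox6-only cells depended on the mouse. In CPM summed per retina it was lower in Vsx1-only cells in both retinas of mouse 1 and higher in both retinas of mouse 2, and the mean log2 difference (CPM + 0.5) of mouse 1 minus that of mouse 2 was -5.48. By mean TPM, retina 2Ra went the other way, with 12.6 TPM in Vsx1-only and 18.3 TPM in Sox6-only cells. This difference between mice was not tested.

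Epha5 differed between the retinas of a mouse in opposite directions in different groups. The la over Ra difference was larger by 1.76 on the log2(TPM + 1) scale in Ddit4l-only than in Sox6-only cells, and by -1.86 in Vsx1-only relative to Ddit4l-only cells, with the same direction in both mice. Neither difference was tested.

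The 62 wells under 3000 genes took part in no comparison. Of the 10 genes, 5 had a summed expected count above 3 in these wells: Epha7 (4338, with at least 1 count in 34 wells), Epha4 (440 in 2 wells), Ephb2 (210.2 in 7 wells), Epha5 (143 in 7 wells) and Efna5 (20 in 1 well).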

How the results depend on the processing

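The mouse sums gave 13 calls of any gene in Vsx1-only over Sox6-only, 0 in Ddit4l-only over Sox6-only and 50 in Vsx1-only over Ddit4l-only cells. In that order of comparisons the calls were 0, 0 and 4 with the mouse as a replicate block, 74, 8 and 167 with no low-count filter, 961, 858 and 1769 with DESeq2, 115, 77 and 331 in retina sums with the retina as a block, 10, 4 and 83 with marker genes at 5 TPM, 3, 0 and 6 at 50 TPM, 52, 2 and 65 with the other marker genes under 1 TPM, 3, 0 and 44 with cells of at least 5000 genes, 0, 0 and 69 without cells rich in rod transcripts, 362, 180 and 656 with limma on log2(TPM + 1), and 423, 224 and 773 on log2(TPM + 0.1). RLE scaling gave 11, 0 and 45, and cells of at least 1500 genes and 50000 counts gave 12, 0 and 48. Leaving out a retina gave 0 to 24 calls in the first, 0 in the second and 3 to 51 in the third comparison.

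Of the 10 genes, 1, 0 and 2 were called. These were 0, 0 and 1 with the replicate block, 3, 2 and 4 with DESeq2, 1, 1 and 2 with no filter and in retina sums, 1, 0 and 1 at 50 TPM, 0, 0 and 1 without cells rich in rod transcripts, and 0 to 1, 0, and 0 to 2 without a retina. Epha7 was called in 14 of 17 tested alternatives in Vsx1-only over Sox6-only and in 16 of 17 in Vsx1-only over Ddit4l-only cells, and Epha4 in 11 of 17 in Vsx1-only over Ddit4l-only and in 3 of 17 in Ddit4l-only over Sox6-only cells, with 1 sign throughout.

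Directions reversed for thinly counted genes, and the cause was not tested. Efna5 in Vsx1-only over Sox6-only cells was -1.65 with the block and -1.38 in retina sums. In Ddit4l-only over Sox6-only cells Efna5 was 0.085 at 5 TPM, and Efnb1 was -0.35 in retina sums and -0.051 and -0.086 with limma (pseudocount 1 and 0.1). Without a retina or a mouse, the log2 differences in Ddit4l-only over Sox6-only cells ran from -1.31 to 0.37 for Ephb2, -7.06 to 0.52 for Efna5, -0.66 to 1.40 for Efnb1 and -6.00 to 2.20 for Efnb2, and for Efna5 in Vsx1-only over Ddit4l-only cells from -0.14 to 9.40. Without mouse 2, with no test, Efna5 in Vsx1-only over Sox6-only cells was -2.25, and without mouse 1 Epha3 in Ddit4l-only over Sox6-only cells was 0.61. Of the alternative log2 differences of members, 420 kept their direction and, where a test was made, their call. With a test, 11 reversed direction, 10 lost a call and 8 gained one. A further 4 reversed when a mouse was left out, where no test was made. Blocking changed no other call of a member. Thinning to 200000 counts per cell lowered the share of cells with at least 1 count for rare genes too, to 21.9% for Epha3 in Sox6-only cells, against 26.5% before thinning, and to 3.39% for Efnb2 in Ddit4l-only cells, against 6.78%.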
